A study of Mus musculus with 11 samples.

Results

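The genes described are 47 components of the type I interferon response and of nucleic acid sensing, taken by gene symbol from a list. The list was drawn up with earlier results of these data known. Of the 47 genes, 46 had a row in a count table of 36666 genes, and 45 were among the 17983 genes that passed a filter on low counts and were tested. The RNA came from one cerebral hemisphere of 11 male C57/Bl6 mice aged 1 year. Of these, 7 were Polg mutators (D257A/D257A), a knock-in with an amino acid change that impairs proofreading by the mitochondrial DNA polymerase in every tissue, and 4 were control littermates, 3 WT/WT and 1 WT/D257A (mouse 237). The mice carried no other allele and received no treatment that the labels name. Counts per gene do not read a point mutation, so they do not check the genotypes.

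Type I interferons are secreted proteins that warn cells of virus. Sensors such as RIG-I and MDA5 for RNA and cGAS for DNA act through the adaptors Mavs and Sting to switch on interferon genes, and interferon then acts through a receptor of Ifnar1 and Ifnar2 chains and a complex that holds Stat2 and Irf9 to induce a large set of antiviral genes. DNA or RNA that escapes from mitochondria can engage the same sensors, and in the brain microglia, endothelial cells, astrocytes and neurons are all able to express interferon-induced genes.

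Most of the response genes had higher values in the mutators, by small amounts, and 4 of them passed the test. The receptor chains and most of the signalling components had fold changes near 0. Of the 45 genes tested, 37 had a positive log2 fold change and 8 a negative one. Their median log2 fold change was 0.18, beside 0.0014 for all genes tested, of which 50.4% were positive. Adjusted over all genes tested, the p-value was under 0.05 for 4 of the 45 genes, Lgals3bp, Oasl2, Irf7 and Rsad2, all higher in mutators, which is 8.89% beside 0.439% of all genes tested (edgeR quasi-likelihood test, Benjamini-Hochberg). None was lower past that threshold, beside 0.801% of all genes, while 2 were lower at an unadjusted p under 0.05 and none was called lower by DESeq2. At an unadjusted p under 0.05, 20 of the 45 genes (44.4%) were higher, beside 7.18% of all genes, and the 2 lower genes (4.44%) stood beside 8.58%. In 6 genes every mutator lay above every control, beside 1.2% of all genes, and in 0 every mutator lay below, beside 1.42%. These bulk values do not separate more RNA per cell from more cells of a type.

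The libraries held from 28249345 (control 246) to 121182250 (control 205) gene counts. The 11 libraries were sequenced in pools whose members are not given in the sources used here, so a pool could not be set against genotype. Mutator 248 has more gene counts than the aligned reads listed for it. Brain cell markers were high in all 11 mice, with summed CPM (normalized read counts relative to library size) of 5230 to 5730 for neurons, 3690 to 4270 for astrocytes and 4740 to 6670 for oligodendrocytes.

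In CPM per kilobase of exon (RPKM), the genes tested spanned from 0.0774 for Zbp1 to 39.8 for Adar, averaged over all mice. Next to Adar came the kinase Tbk1 at 17.9, the effectors Ifitm3 at 12 and Ifitm2 at 8.19, Ifnar1 at 7.93 and Lgals3bp at 7.46. Several classical induced genes were at low levels, with Irf7 at 1.07, Rsad2 at 0.384, Mx2 at 0.372, Oas1b at 0.327, Mx1 at 0.116 and Ifi44 at 0.0817. Their counts were correspondingly few, down to 3 in the shallowest control for Oas1b and Mx1, and their errors were large.

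**Figure D1:**
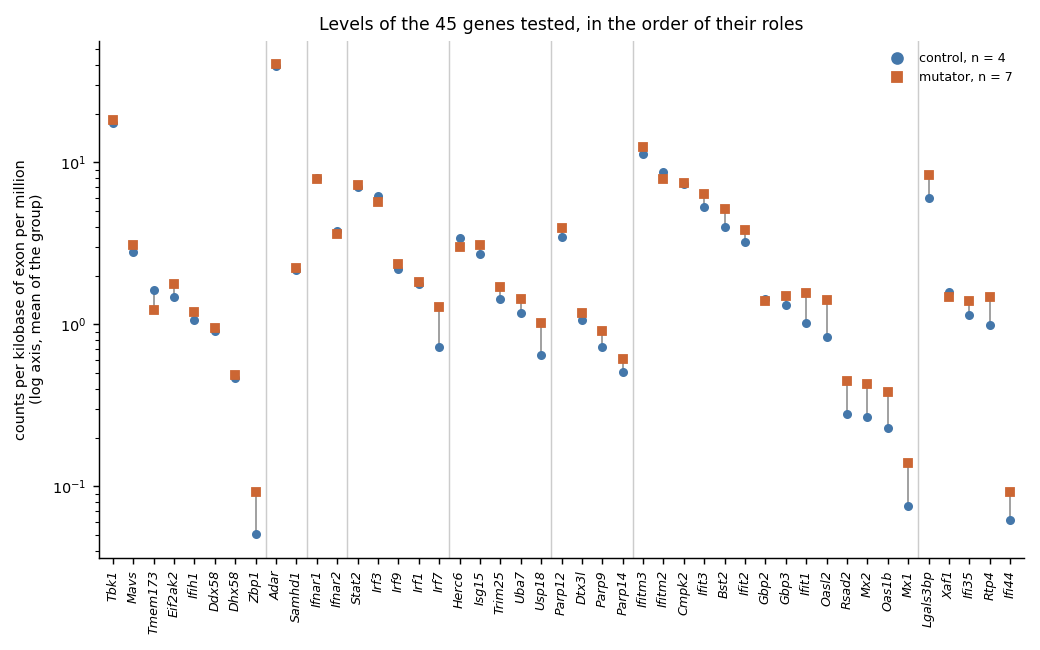
Mean level of each of the 45 genes tested in controls (circles, n = 4) and mutators (squares, n = 7), as RPKM on a log axis, with vertical lines between the roles (from left: sensors and adaptors, nucleic acid removal and editing, receptor chains, transcription factors, the Isg15 system, Parp and Dtx3l, antiviral effectors, other induced genes). The marks nearly coincide in the abundant Adar and Tbk1 and in the lowly expressed Dhx58. They separate in the lowly expressed Irf7, Oasl2 and Rsad2 and in the more abundant Lgals3bp.

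The transcription factors of the pathway were led by Irf7, the factor that is itself induced by interferon and then amplifies interferon production (mm9 chr7:148448605-148452380, minus strand). In the controls Irf7 was at 1.68, 2.33, 2.87 and 1.85 CPM in mice 205, 237, 239 and 246, and in the mutators it ranged from 2.87 to 4.85 CPM with a median of 3.97. All 7 mutators were above all 4 controls, though the lowest mutator and the highest control nearly touched at 2.874 and 2.868 CPM. The means were 2.18 ± 0.534 (SD, n = 4) and 3.85 ± 0.703 CPM (SD, n = 7), a log2 fold change of 0.82 ± 0.17 (SE), with an edgeR adjusted p of 0.0172. The call did not hold without control 237 (adjusted p = 0.0664) or without control 246 (adjusted p = 0.0636), while the log2 fold change there was 0.85 and 0.76. The other 4 factors were not called: Irf3, the constitutive factor that starts interferon transcription, had a log2 fold change of -0.13 ± 0.12, and Stat2 one of 0.04 ± 0.06, with 95% intervals of -0.39 to 0.14 and -0.10 to 0.17. Irf1 and Irf9 had log2 fold changes of 0.03 and 0.10. Irf7 was thus the single one of the 5 factors with an unadjusted p under 0.05.

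**Figure D2:**
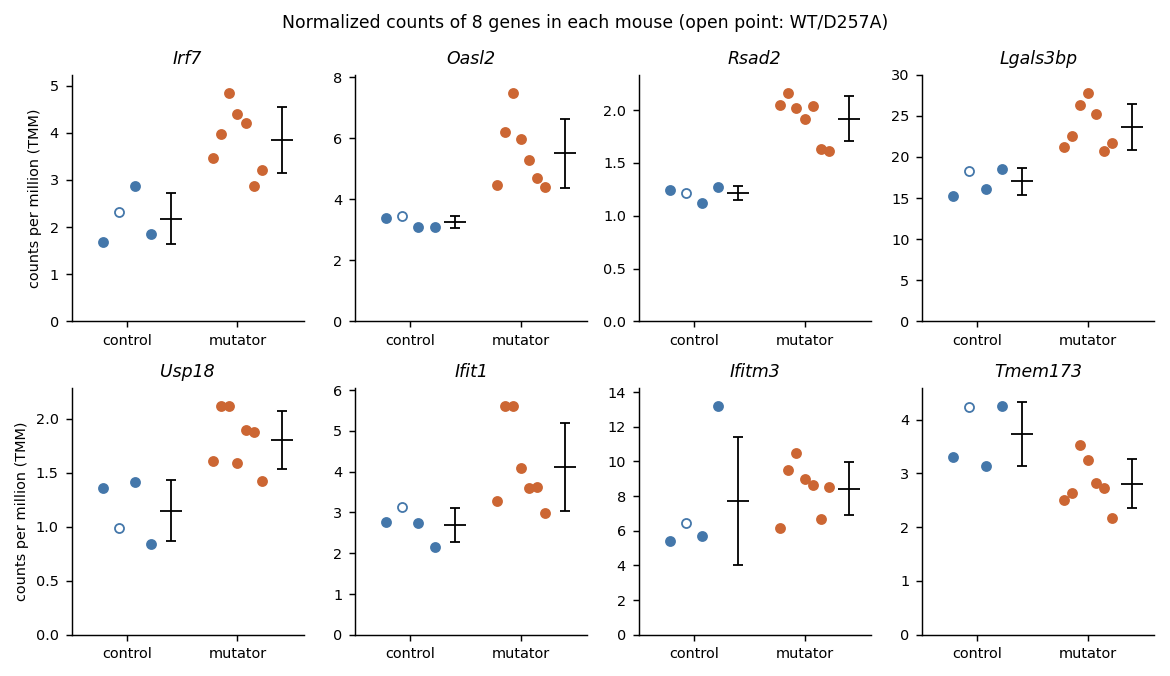
Normalized counts (CPM) of 8 genes in each mouse, with 1 panel per gene and a y axis from 0. Points are mice (open: the WT/D257A control) and bars are the mean and SD of 4 controls and 7 mutators. Every mutator lies above every control for Irf7, Oasl2, Rsad2, Lgals3bp and Usp18, while control 246 is the highest mouse for Ifitm3 at 13.2.

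Among the 14 antiviral effectors, Oasl2 and Rsad2 were called. Oasl2 (mm9 chr5:115346943-115362243, plus strand), a relative of the oligoadenylate synthetases, was at 3.40, 3.45, 3.09 and 3.09 CPM in controls 205, 237, 239 and 246 and between 4.41 and 7.49 CPM (median 5.28) in mutators. The groups did not overlap, and the mutators varied more widely than the controls. The means were 3.26 ± 0.194 and 5.50 ± 1.13 CPM, which gave a log2 fold change of 0.75 ± 0.14 (adjusted p = 0.00867 in edgeR). The call held in each of 20 alternatives, with adjusted p-values of at most 0.0447. The WT/WT controls alone and the omission of control 237 are the same fit, and both are counted among the 20.

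Rsad2 (mm9 chr12:27127618-27141317, minus strand) encodes viperin, a radical SAM enzyme that makes a chain-terminating nucleotide against viral polymerases. It was at 1.24, 1.22, 1.12 and 1.27 CPM in controls 205, 237, 239 and 246 and between 1.61 and 2.16 CPM (median 2.02) in mutators. The controls were tightly grouped and no mutator reached down to them. The means were 1.21 ± 0.0654 and 1.92 ± 0.214 CPM, which gave a log2 fold change of 0.66 ± 0.15 (adjusted p = 0.0297 in edgeR). Its call depended on single mice, with adjusted p-values of 0.0602, 0.0505, 0.114, 0.0927, 0.0677 and 0.0587 without 211, 236, 237, 239, 240 and 246, and log2 fold changes of 0.63 to 0.70 over all single omissions.

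The neighbouring gene Cmpk2, a mitochondrial nucleotide kinase that is often induced along with Rsad2, was at 23.6 ± 1.19 and 23.9 ± 1.13 CPM, with a log2 fold change of 0.02 ± 0.05 and a 95% interval of -0.09 to 0.13. It was chosen here after its value was seen, for its place beside Rsad2.

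The Ifit genes encode proteins that bind viral RNA and block its translation. Ifit1 was at 2.77, 3.13, 2.74 and 2.14 CPM in controls 205, 237, 239 and 246 and between 2.99 and 5.61 CPM (median 3.63) in mutators, where 6 of 7 lay above all controls. Mutators 211 and 217 were at 5.60 and 5.61 CPM and the next was at 4.08. Its log2 fold change was 0.59 ± 0.17 with an edgeR adjusted p of 0.0886, and without mutators 211 and 217 it was 0.37. Ifit3 and Ifit2 had smaller log2 fold changes, 0.29 ± 0.10 and 0.23 ± 0.07, with adjusted p-values of 0.15 and 0.127, and likewise 6 of 7 mutators above all controls. DESeq2 called Ifit1 (adjusted p = 0.022) but neither Ifit2 nor Ifit3.

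Short sequences before the transcription start sites are shown for some of the genes that held a match to the interferon-stimulated response element. The complex with Stat2 and Irf9 and the Irf factors bind this element, by which many interferon-induced genes are known. Not all of the genes described here held a match. The sequences are from RefSeq on build GRCm38.p6, a different build from the counts. A table of promoters (250 bases before to 50 after each start) held an entry for 36 of the 47 genes. Capitals mark matches to GAAANNGAAA on either strand.
Ifit1, chr19:34640760-34640819, plus strand: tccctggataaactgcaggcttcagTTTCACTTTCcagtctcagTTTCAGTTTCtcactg
Ifit3, chr19:34583348-34583407, plus strand: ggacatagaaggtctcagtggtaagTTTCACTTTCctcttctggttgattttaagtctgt
Rsad2, chr12:26456538-26456597, minus strand: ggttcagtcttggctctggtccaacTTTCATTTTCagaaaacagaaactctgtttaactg
Bst2, chr8:71537568-71537627, minus strand: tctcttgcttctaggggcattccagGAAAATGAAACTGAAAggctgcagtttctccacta
Isg15, chr4:156200862-156200921, minus strand: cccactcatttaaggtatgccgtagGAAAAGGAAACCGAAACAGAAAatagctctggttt

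The first match began 104 bases before the start in Ifit1, 156 in Ifit3, 120 in Rsad2, 130 in Bst2 and 78 in Isg15, where 3 overlapping matches ran together. Of the 36 genes with an entry, 13 (36.1%) held GAAANNGAAA in a 300-base window, beside 3.99% of 27025 genes in the table. Among the 12 genes with an entry that were higher at an unadjusted p under 0.05, 5 held it (Eif2ak2, Ifit1, Ifit3, Rsad2 and Bst2), and among the 23 other tested genes with an entry 8 did. The windows of Oasl2, Irf7 and Lgals3bp held no match to these letters. The gamma-activated site TTCNNNGAA, another element of interferon-responsive promoters, was in 10 of the 36 (27.8%), beside 9.55% of genes. A gene was counted where any of its listed starts held the letters, and a match here is a match of letters only.

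Bst2, or tetherin, which holds budding virus particles to the cell surface, was at 2.35, 3.22, 2.82 and 3.85 CPM in the 4 controls 205, 237, 239 and 246 and between 3.19 and 4.4 CPM in the mutators. The groups overlapped, with a log2 fold change of 0.37 ± 0.14 (adjusted p = 0.19 in edgeR). Mx1, Mx2 and Oas1b, of which C57BL/6 mice carry defective forms, had log2 fold changes of 0.78 ± 0.36, 0.64 ± 0.27 and 0.70 ± 0.33, with adjusted p-values of 0.305, 0.238 and 0.306. Without mutators 211 and 217 the log2 fold changes of Mx1 and Mx2 were 0.41 and 0.32. Mx1, Oas1b and Ifi44 were the 3 most variable of the genes tested within a group. Mx1 ranged 4.29-fold among the mutators, and Oas1b 4.46-fold and Ifi44 3.51-fold among the controls, where none of the 3 exceeded 0.647 CPM.

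The membrane proteins Ifitm2 and Ifitm3, which hinder viral entry, were the most abundant effectors per kilobase. Their fold changes depended on control 246, though neither gene was called with or without it. Ifitm3 was at 5.38, 6.47 and 5.72 CPM in controls 205, 237 and 239, at 13.2 CPM in control 246, and between 6.17 and 10.5 CPM in mutators. Ifitm2 was at 4.59, 4.86 and 4.53 CPM in the same 3 controls, at 8.54 CPM in control 246, and between 3.94 and 6.65 CPM in mutators. With all mice the log2 fold changes were 0.17 ± 0.25 and -0.09 ± 0.17. Without control 246 they were 0.53 for Ifitm3, with an unadjusted p of 0.0015 and an adjusted p of 0.118, and 0.16 for Ifitm2. The summed monocyte and neutrophil markers (6 genes, with Ly6c2 and Ly6g under 1 CPM in all mice) stood at 35.8 CPM in control 246 and 10.3 to 13.8 CPM in the other controls, and the part of these cells in the Ifitm values was not tested. Gbp2 and Gbp3, guanylate binding proteins, had log2 fold changes of -0.03 ± 0.17 and 0.17 ± 0.17.

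Of the 8 sensors and adaptors, none was called, and 7 had a positive log2 fold change and 1 a negative one. Zbp1, a sensor of Z-form nucleic acids, was above all controls in all 7 mutators, at 0.200 to 0.553 CPM against 0.161 to 0.192 CPM, but it rested on 5 to 30 counts per mouse. Its log2 fold change was 0.84 ± 0.34, with an edgeR adjusted p of 0.232. Eif2ak2, the double-stranded RNA kinase PKR, was at 6.91 to 8.02 CPM in controls and 7.29 to 11.0 CPM in mutators, with a log2 fold change of 0.27 ± 0.10 and an adjusted p of 0.18.

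Tmem173, which encodes the DNA-sensing adaptor Sting (mm9 chr18:35893332-35900208), had the opposite sign. It was at 3.30, 4.24, 3.14 and 4.25 CPM in controls 205, 237, 239 and 246 and between 2.18 and 3.53 CPM (median 2.73) in mutators. No mutator exceeded the highest 2 controls, but mutators 217 and 236 overlapped the lower 2. Its log2 fold change was -0.39 ± 0.14, with an unadjusted p of 0.00966 and an edgeR adjusted p of 0.159. The RNA sensors Ddx58 (RIG-I), Ifih1 (MDA5) and Dhx58 had log2 fold changes of 0.06 ± 0.10, 0.15 ± 0.10 and 0.05 ± 0.14. The adaptor Mavs, which sits on the mitochondrial outer membrane, had one of 0.13 ± 0.09 and Tbk1 one of 0.05 ± 0.05, with a 95% interval of -0.04 to 0.15.

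The receptor chains differed little. Ifnar1 was at 47.3 ± 1.85 and 46.3 ± 2.19 CPM, a log2 difference of -0.03 with a 95% interval of -0.13 to 0.07, and Ifnar2 was at 14.7 ± 0.719 and 14.1 ± 0.826 CPM, a difference of -0.06 with an interval of -0.19 to 0.07. Of Ifnar2's exon bases, 14.6% are shared with Il10rb. The same held for the enzymes that keep self nucleic acids from the sensors. Adar, which edits double-stranded RNA, had a log2 fold change of 0.04 with an interval of -0.04 to 0.13, and Samhd1, which breaks down deoxynucleotides, one of 0.05 with an interval of -0.08 to 0.17. Trex1, the DNA exonuclease, had 0 counts in every mouse. All of its annotated exon bases overlap those of Atrip, and reads that lie in both genes are ambiguous to a gene counter. The exon bins of the merged Trex1 and Atrip group summed to 33.6 to 38.4 CPM in the 3 WT/WT mice and 34.7 to 39.1 CPM in the mutators.

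Isg15 is a ubiquitin-like protein that Uba7 activates, Herc6 and Trim25 attach or are linked to, and Usp18 removes. Usp18, which also damps the interferon receptor, was above all controls in all 7 mutators, at 0.836 to 1.41 CPM in controls and 1.43 to 2.12 CPM in mutators. The gap between the groups was small, with a log2 fold change of 0.61 ± 0.17 (adjusted p = 0.0841 in edgeR), and DESeq2 called it (adjusted p = 0.0259). Uba7 and Trim25 had log2 fold changes of 0.29 ± 0.12 and 0.24 ± 0.10, with adjusted p-values of 0.248 and 0.226. Isg15 itself was at 1.75 to 2.44 CPM in controls and 1.49 to 2.86 CPM in mutators, with a log2 fold change of 0.20 ± 0.17 (adjusted p = 0.607). Herc6, the ligase of this system in mice, was lower in value, at 18.3 ± 1.24 and 16.3 ± 1.15 CPM, with a log2 fold change of -0.17 ± 0.07 and an adjusted p of 0.229.

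The poly(ADP-ribose) polymerase relatives Parp9, Parp12 and Parp14 and the ubiquitin ligase Dtx3l, the partner of Parp9, all had positive log2 fold changes and none was called. The values were 0.32 ± 0.11, 0.19 ± 0.07, 0.27 ± 0.13 and 0.14 ± 0.09, with edgeR adjusted p-values of 0.171, 0.199, 0.308 and 0.485. Parp9 and Dtx3l lie head to head and share 9.4% and 8% of their exon bases, and with a library kit that does not mark strand those reads cannot be told apart.

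The lowest p among the 45 genes was that of Lgals3bp (mm9 chr11:118254065-118263406, minus strand), a secreted glycoprotein that binds galectins and is induced by interferon. It was at 15.2, 18.3, 16.1 and 18.5 CPM in controls 205, 237, 239 and 246 and between 20.8 and 27.8 CPM (median 22.6) in mutators. The groups were well apart, with means of 17.0 ± 1.64 and 23.7 ± 2.75 CPM, which gave a log2 fold change of 0.48 ± 0.08 (adjusted p = 0.00572 in edgeR). It was called in each of the 20 alternatives, with adjusted p-values of at most 0.0365. It was also the most abundant of the 4 called genes, at 7.46 RPKM. Rtp4, a chaperone of receptors and an interferon-induced antiviral protein, was at 1.38 to 1.77 CPM in controls and 1.53 to 2.93 CPM in mutators, with a log2 fold change of 0.60 ± 0.18 (adjusted p = 0.105 in edgeR, DESeq2 adjusted p = 0.0353). Xaf1, Ifi35 and Ifi44 had log2 fold changes of -0.10 ± 0.10, 0.29 ± 0.15 and 0.43 ± 0.35 and were not called. That of Ifi44 was 0.20 without control 237, 0.85 without control 205 and 0.13 without mutators 211 and 217. Ifi27 had no row under its symbol. RefSeq synonyms point to the rows Ifi27l1, with a log2 fold change of 0.12 ± 0.09, and Ifi27l2a, with one of 0.70 ± 0.26 (adjusted p = 0.186), of whose exon bases 46.4% are shared with Ifi27l2b.

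**Figure D3:**
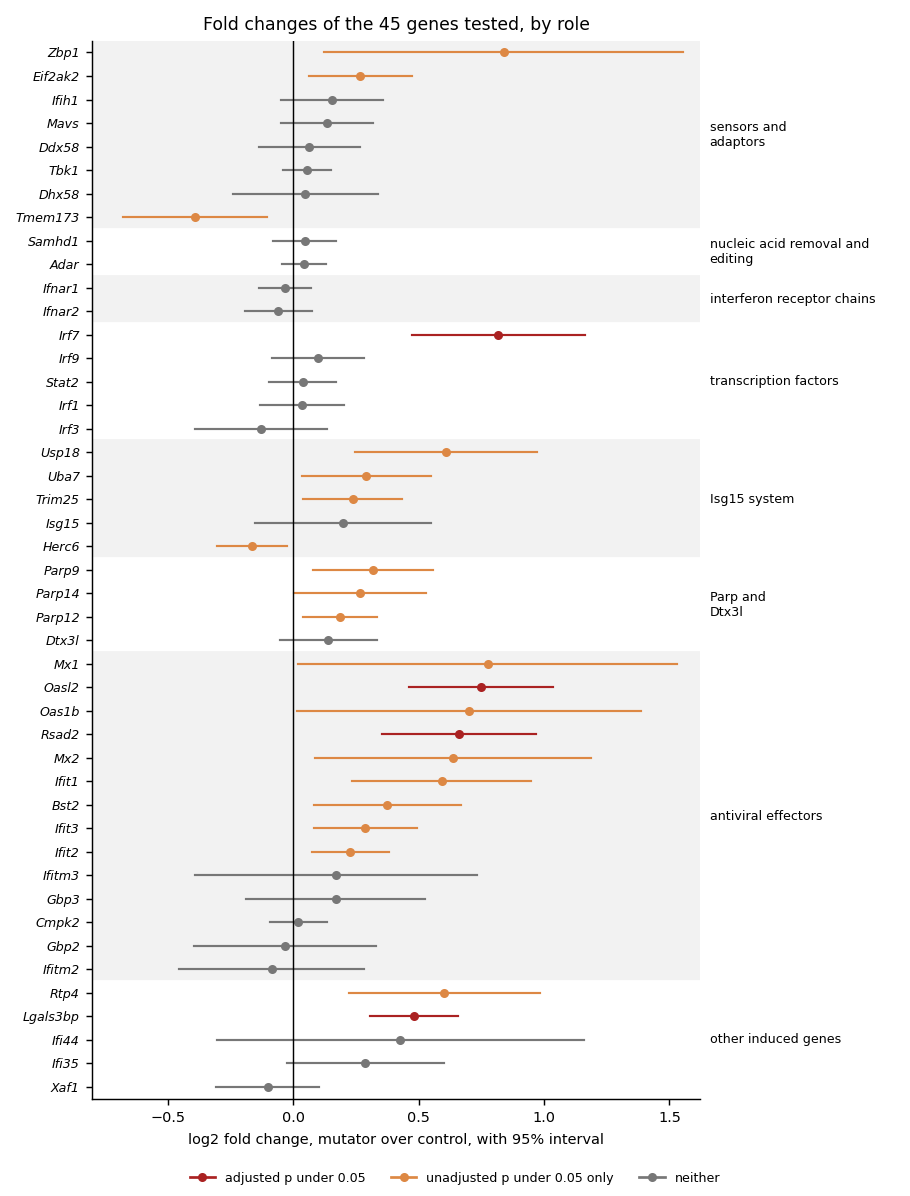
Log2 fold change of mutators over controls (points) with its 95% interval (lines) for the 45 genes tested, grouped by role, with colour for the outcome of the edgeR test. The 4 called genes (Irf7, Oasl2, Rsad2 and Lgals3bp) lie between 0.48 and 0.82, the receptor chains and Adar lie near 0, and Tmem173 at -0.39 and Herc6 at -0.17 are the negative genes with an unadjusted p under 0.05.

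The mutators differed among themselves. The median over the 45 genes of the log2 difference from the control mean was 0.371 in mouse 211 and 0.31 in mouse 217, and between 0.0733 and 0.193 in the other 5 mutators. In the controls it lay between -0.052 and 0.0368. Mouse 211 was the highest of the 11 mice for 17 of the 45 genes and mouse 217 for 7. Control 246 was the highest for 7 as well, Ifitm2 and Ifitm3 among them. Without mutators 211 and 217, an alternative added after these values were seen, the median log2 fold change of the 45 genes was 0.13. There 3 of them were called (Irf7, Oasl2 and Lgals3bp), beside 231 of all genes. All genes tested had medians of 0.00062 to 0.011 in the single mice.

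**Figure D4:**
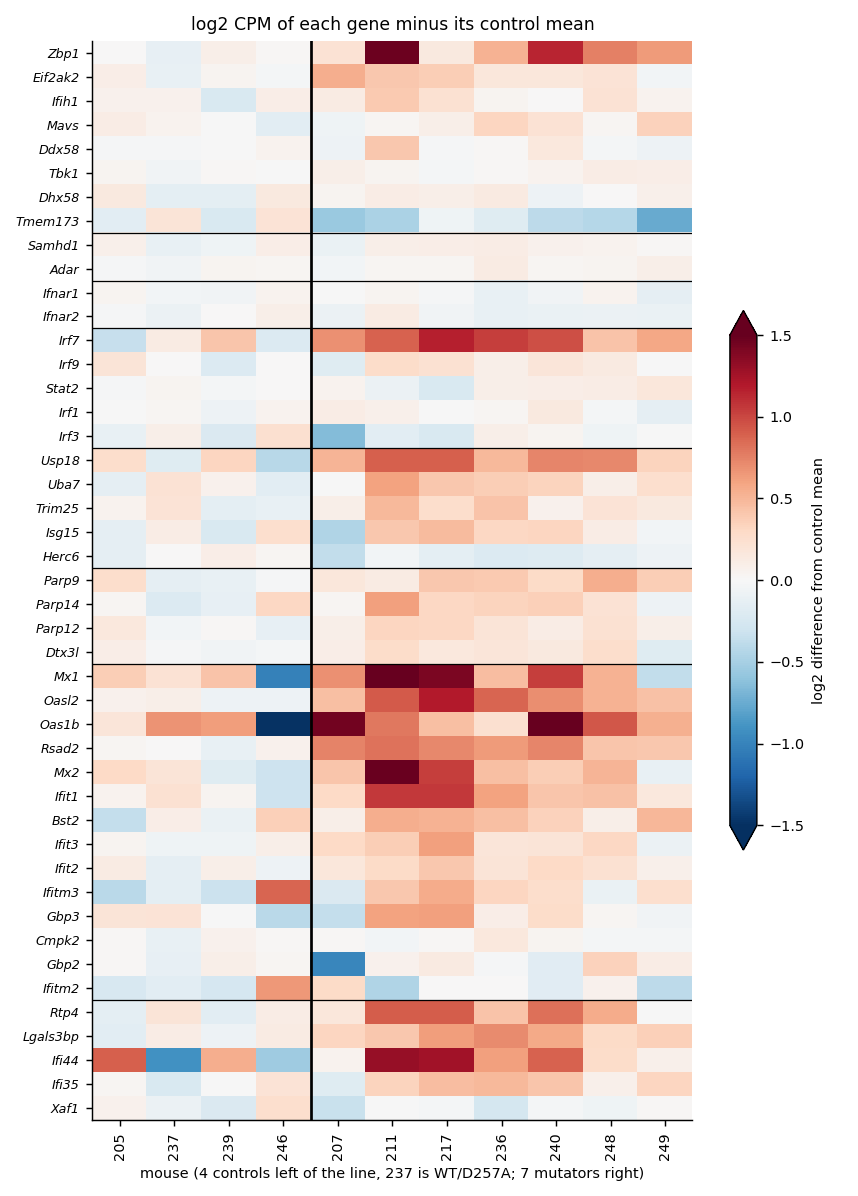
Log2 CPM of each of the 45 genes minus its control mean (colour, red higher and blue lower, limits at -1.5 and 1.5) in each mouse, with controls left and mutators right of the vertical line and horizontal lines between roles. The columns of mutators 211 and 217 are the reddest, with medians of 0.371 and 0.31, and control 246 is red for Ifitm2 and Ifitm3.

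Cell type markers were summed per mouse and compared by exact 2-sided permutation tests over 330 splits, of which the smallest possible p is 0.00303, adjusted over 10 lists. None of the 10 lists differed at an adjusted p under 0.05. Microglia markers (10 genes, all tested) summed to 323 to 408 CPM in controls and 306 to 378 CPM in mutators, so that their sum was not higher in mutators, and mutators 211 and 217 stood at 347 and 378 CPM. Monocyte and neutrophil markers summed to 19.5 to 35.9 CPM in mutators, above the 10.3 to 13.8 CPM of 3 controls but not above the 35.8 CPM of control 246 (log2 difference 0.62, exact permutation p = 0.0818, adjusted 0.205). Without control 246 the log2 difference of that list was 1.01 (exact permutation p = 0.00833, adjusted 0.0833, the smallest p of 3 against 7 mice). Mutator 217, at 35.9 CPM, was the highest of the mutators for these markers too. Mutator 211 stood at 27 CPM, beside 27.1 CPM in mutator 240 and 25.7 CPM in mutator 248. Whether such cells contribute to the interferon genes was not tested.

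Endothelial markers summed to 215 to 260 CPM in controls and 226 to 293 CPM in mutators (log2 difference 0.14, exact permutation p = 0.112). Lymphocyte markers were at 10.4 to 13.3 CPM in controls and 7.36 to 10.3 CPM in mutators (exact permutation p = 0.0182, adjusted 0.182), with Cd3e, Cd3g, Cd8a, Cd79a, Ms4a1 and Nkg7 under 1 CPM in every mouse. Astrocyte markers had a log2 difference of -0.08 (exact permutation p = 0.0364, adjusted 0.182). The lists for neurons, oligodendrocytes, pericytes and smooth muscle, choroid plexus and red cells had log2 differences of -0.04, 0.01, 0.12, 0.15 and 0.53, with exact permutation p-values of 0.179, 0.927, 0.0727, 0.215 and 0.215. The red cell difference was 0.30 without control 239 and 0.89 without control 246. The only single marker called by edgeR in the 10 lists was Abcc9 of the pericyte list, higher in mutators.

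A second list was written from general knowledge, beside the roles and marker lists, which were chosen with earlier results of these data known. It held 110 other genes of the pathway, with 105 rows and 81 genes tested. Of these, 2 (2.47%) were called, both higher in mutators, beside 0.439% of all genes tested, and 0 lower by edgeR or DESeq2. At an unadjusted p under 0.05, 23 (28.4%) were higher, beside 7.18% of all genes, and 2 (2.47%) lower, beside 8.58%. In 5 (Ifi47, Gbp6, Ptpn11, Igtp and Trim21) every mutator lay above every control, beside 1.2% of all genes. Their median log2 fold change was 0.10. Both called genes encode GTPases that interferon induces. Ifi47 was at 0.45, 0.484, 0.433 and 0.654 CPM in controls 205, 237, 239 and 246 and between 0.78 and 1.29 CPM in mutators, with a log2 fold change of 1.00 ± 0.21 (adjusted p = 0.0255 in edgeR). Gbp6 was at 1.86, 1.80, 1.88 and 2.14 CPM in the same controls and between 2.40 and 3.29 CPM in mutators, with a log2 fold change of 0.60 ± 0.13 (adjusted p = 0.0305). Neither overlapped between the groups. Both calls depended on the mice used. Ifi47 had adjusted p-values of 0.0513, 0.109, 0.0843 and 0.0537 without 205, 237, 239 and 240, and Gbp6 had 0.0517, 0.062, 0.059, 0.145, 0.0844 and 0.0637 without 205, 211, 236, 237, 239 and 248.

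The induced genes of that list carried most of the unadjusted differences. Of 42 tested, 35 had a positive log2 fold change and 15 (35.7%, beside 7.18% of all genes) were higher at an unadjusted p under 0.05, among them the oligoadenylate synthetases Oas1a (1.01 ± 0.35), Oas2 (0.81 ± 0.22) and the related Oasl1 (1.48 ± 0.39, from 2 to 30 counts per mouse), the immunity-related GTPases Iigp1, Irgm1, Irgm2 and Igtp (0.41, 0.23, 0.34 and 0.25), the peptide transporter Tap1 (0.35 ± 0.12) and Trim21 (0.40 ± 0.13). The others were Slfn8 (0.52), Ube2l6 (0.32), Rnf213 (0.23) and Ifi27l2a, besides the 2 called genes. The median of the 42 was 0.23.

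The remaining roles had medians nearer to 0. Of 18 other sensors and adaptors, 4 were higher at an unadjusted p under 0.05 (Tlr7 0.43, Ddx60 0.50, Ifi204 0.84 and Hmgb1 0.10) and 1 lower (Tlr3, -0.17), with a median of 0.04. Of 9 nucleic acid clearance genes, Pnpt1 (0.14) and Zc3hav1 (0.20) were higher and Rnaseh2c (-0.24) lower at that level, and of 5 other interferon regulatory factors Irf4 was higher (0.80). In receptor signalling 1 of 7 genes was higher at that level, the phosphatase Ptpn11 (0.16 ± 0.04, adjusted p = 0.0572 in edgeR and 0.00641 in DESeq2). The receptor kinases Jak1 and Tyk2 had log2 fold changes of -0.04 and -0.06. The DNA sensor cGAS, listed under the row E330016A19Rik, was at 1.36 ± 0.157 and 1.43 ± 0.211 CPM, a log2 fold change of 0.07 ± 0.16. Nlrc5, listed as AI451557, had one of 0.41 ± 0.20. Of the type I interferons themselves, 16 of 18 had a row and none passed the filter. No interferon gene had more than 6 counts in any library, that highest count being Ifnk in a mutator, and Ifnb1 had at most 1 count, in a control.

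Counts per exon bin covered all mice but control 237, and 3 WT/WT mice were compared with 7 mutators for the share of a gene's counts in each bin. Of 563 tested bins in 39 of the 47 genes, 0 were called by edgeR, beside 0.013% of 206930 bins. By limma 0 were called, beside 25 of all bins. At an unadjusted p under 0.05 there were 11 bins by edgeR (1.95%), beside 1.95% of all bins. There were 16 (2.84%) by limma, whose share over all bins at that level was not computed, so no excess can be read from them. The lowest p was in bin 3 of 16 of Mavs, which held 3.35% ± 0.715 of the gene's bin counts in WT/WT mice and 2.06% ± 0.634 in mutators, from 4 to 42 counts per mouse (log2 difference -0.90, unadjusted p = 0.00205, adjusted p = 1 in edgeR). Bins of Ifnar2 and Irf9 are counted together with those of Il10rb and Rnf31.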

How the data were processed

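Poly(A)+ RNA of 11 cerebral hemispheres was sequenced as 100-base paired reads. The authors aligned them to mm9 (TopHat2 2.0.6, Bowtie2 2.0.2.0), counted them on Ensembl genes with HTSeq (0.5.3p9) and deposited raw counts per gene and, for 10 mice, per exon bin. Their DESeq and DEXSeq tables hold fold changes and p-values of their own comparison and were not used. All per-sample count columns were used.

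Mutators were compared with controls in edgeR (version 4.0.16, R 4.3.3) by a robust quasi-likelihood test after filterByExpr and TMM scaling, with Benjamini-Hochberg adjustment over 17983 genes and a threshold of 0.05. This replaces DESeq, which the study's methods name. The SE is the size of the log2 fold change over the root of F. CPM used TMM factors, and overlap of groups was read on log2 CPM with a prior count of 2. RPKM used exon unions of GENCODE vM1 on NCBIM37, so lengths come from a later annotation than the counts. Exon bins were tested with diffSpliceDGE. Scripts were tested on simulated data. Alternatives were DESeq2 1.42.0, other scalings and filters, dropping the heterozygote or the mitochondrial genes, total count as a covariate, limma 3.58.1 for bins, and leaving out each mouse. Named genes are those with an adjusted or unadjusted p under 0.05, those without overlap, the 2 most abundant per role, the 3 most variable, and those without a test; others are given by fold change alone. The genes, roles and marker lists were chosen with earlier results of these data known. Each library is 1 mouse, and no pair of libraries of a group agreed within sampling noise. Some genes of the lists are not reported here.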

Additional observations from a re-analysis of the deposited data

Results flagged for a closer look

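In groups of 4 or 7 mice, a mouse was set apart where its gap to the next mouse took an unusually large share of the group's range. This was so in 8 of 144 groups examined, where chance gives about 1 in 20, or 7.2. Control 246 stood apart 4 times: it was the highest control for Ifitm2 (share of the range 0.919; 8.54 CPM against 4.53 to 4.86), for Ifitm3 (0.861; 13.2 against 5.38 to 6.47) and for the summed monocyte and neutrophil markers (0.862; 35.8 against 10.3 to 13.8), and the lowest for Ptpn11 (0.841; 241 against 254 to 256).

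Among the mutators, mouse 211 was the highest for Ifnar2 (0.796; 16.0 CPM against 13.7 to 14.1), mouse 249 the lowest for Dtx3l (0.573; 5.35 against 6.5 to 7.36) and mouse 217 the highest for the oligodendrocyte markers (0.58; 6670 against 4740 to 5550). Mouse 248 had 3.00 gene counts per aligned read listed (0.988), against 0.744 to 0.772 in the other mutators.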

How the results depend on the processing

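The main fit called 4 of the 45 genes, beside 223 of all genes in either direction. DESeq2 called 7 higher (Usp18, Ifit1 and Rtp4 besides the 4 of edgeR), beside 615 of all genes. The WT/WT controls alone, the same fit as the omission of control 237, left 2 (Oasl2 and Lgals3bp), beside 50. The other scalings and filters, mitochondrial genes left out and the covariate gave 4, beside 197 to 346. Single omissions gave 2 to 4, beside 50 to 412. The lowest count came without control 237 (50 of all genes) or control 246 (93). The number called over all genes thus changed with the setting too. None of the 45 genes was called lower in any alternative. Their median log2 fold change stayed between 0.126 and 0.24. Of the second list, DESeq2 called 7 of 101 genes (Ptpn11, Tlr7, Oas2, Oasl1 and Trim21 besides the 2 of edgeR), beside 615 of all genes. The WT/WT controls alone called 0 of 82, beside 50. The omission of mutators 211 and 217 together called 0 of 79, beside 231. Single omissions called 0 to 4 of the list, beside 50 to 412 of all genes. The log2 fold change of Ifitm2 ranged from -0.178 to 0.158 over single omissions and was positive without control 246. The oligodendrocyte list, 0.00888 with all mice, ranged from -0.0452 to 0.0366 over single omissions, with -0.00122, -0.0452 and -0.0325 without 207, 217 and 239. The lymphocyte list ranged from -0.418 to -0.301 and passed the threshold without mutator 211 (-0.312, exact permutation adjusted p = 0.0476). The cause of these changes was not tested. No paired analysis was possible because the mice carry individual numbers and the groups share none. Genes under about 1 CPM rest on few counts in the shallow libraries.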
